A study of Mus musculus with 4 samples.

Results

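Sox9 is represented by 1 probe among the 41821 non-control probes of the array, chosen because its systematic name is the RefSeq transcript NM_011448.2. The study measured RNA abundance in adult mice of the inbred strain C57BL/6J. There were 2 samples of brain and 2 of thymus, where T cells mature, each on its own Agilent array with 2 dyes. The second channel of every array held Universal Mouse Reference RNA, a pool from 11 mouse cell lines per the deposited readme, so that the same material was read 4 times. Brain 1 and thymus 1 carried Cy3 and brain 2 and thymus 2 carried Cy5, with the reference in the other dye. The labels call the samples biological replicates without naming animals, so p-values measure the spread between these samples, which also differ in dye.

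SOX9 is a transcription factor of the SOXE group, which binds DNA through an HMG box. It is required for cartilage formation and for testis development. In the central nervous system it maintains neural progenitors and takes part in the switch to making glia, and in the adult brain it is found mainly in astrocytes.

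The processed signal is the intensity after background subtraction and dye normalization by the scanner software. By this measure Sox9 was brightest in brain, and each thymus sample lay below the reference RNA on its own array. The Sox9 processed signal was 1440 units in brain 1 and 1371 in brain 2. It was 92.3 units in thymus 1 and 279 in thymus 2. Both brain samples were thus above both thymus samples, and the brain samples were much closer to each other than the thymus samples were.

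In the reference channel the processed signal was 444 units on the brain 1 array, 219 on the brain 2 array, 331 on the thymus 1 array and 442 on the thymus 2 array. All 4 reference readings lay below both brain samples. On its own array each thymus sample lay below the reference, at 92.3 against 331 units for thymus 1 and 279 against 442 for thymus 2. The scanner software's own error estimate was 10.6% of the signal in brain 1, 10.1% in brain 2, 46.6% in thymus 1 and 10.1% in thymus 2. In the reference channel it was 10.7% to 22.6%.

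**Figure D1:**
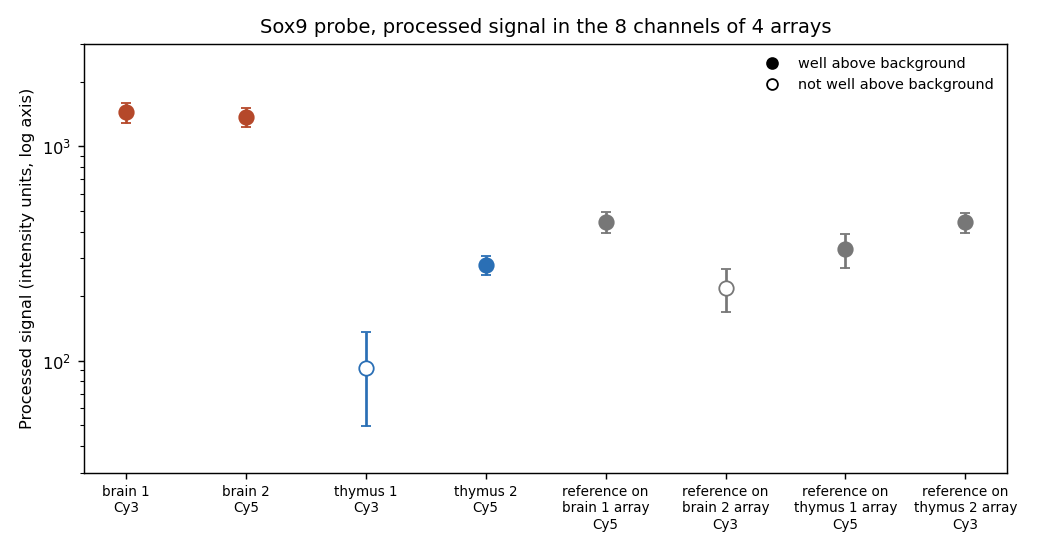
Processed signal of the Sox9 probe (log axis, intensity units) in the 8 channels of the 4 arrays, with the scanner software's error estimate as bars. Filled points were called well above background and open points were not. The brain points lie at 1440 and 1371 units, above the thymus points at 92.3 and 279 and the reference points at 219 to 444.

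The scanner software called Sox9 well above background in brain 1, brain 2 and thymus 2, and not in thymus 1. In the reference RNA it was well above background on the brain 1, thymus 1 and thymus 2 arrays and not on the brain 2 array. In all 8 channels the weaker call, positive and significant against the background, was met, and the spot was neither saturated nor an outlier. The channels that missed the stronger call were both read in Cy3. Thymus 1 therefore gave a weak signal whose size is uncertain, and 1 of the 2 thymus samples measured Sox9 well above background. That sample was thymus 2, where 97.3% of all probes received the same call, so the call there says little about Sox9 itself. For thymus 1, where Sox9 missed the call, the share of probes receiving it was 60.2%.

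The raw pixels show how the spot stood over its surroundings before normalization. The median pixel of the spot was 414 units in brain 1 against a local background of 47, and 1033 in brain 2 against 75. In thymus 1 it was 202 against a local background of 50, and in thymus 2 it was 461 against 76. The spot was thus 8.81 and 13.8 times its local background in brain, and 4.04 and 6.07 times in thymus. In the reference channel this ratio ran from 2.46 to 4.47. The raw pixels thus did not keep the order of the processed signal. The thymus 2 spot was brighter than the brain 1 spot, which was read in the other dye. Its ratio of 6.07 also exceeded every reference ratio.

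**Figure D2:**
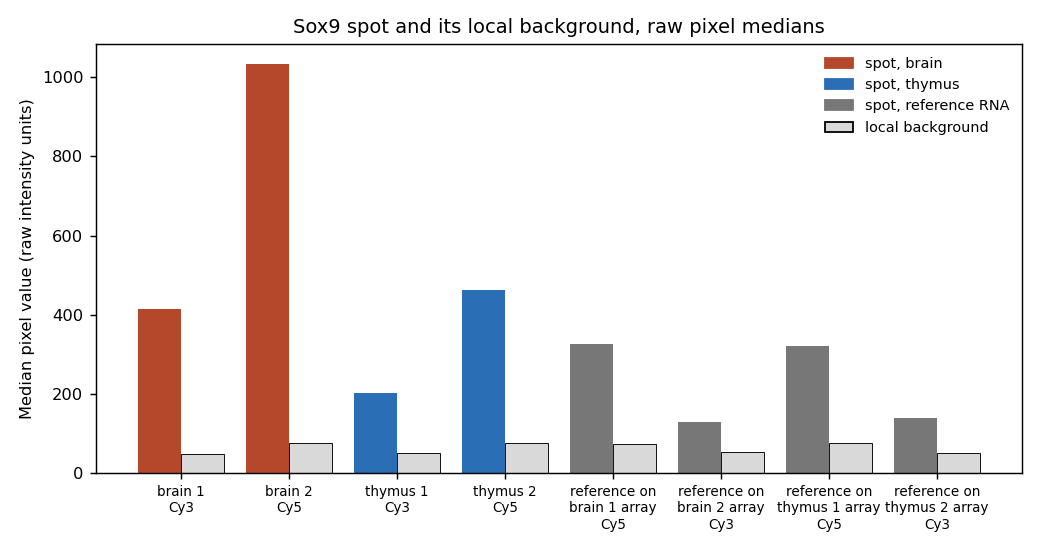
Raw median pixel values of the Sox9 spot and of the local background beside it, for each channel (intensity units, axis from 0). The spot exceeded its local background in every channel, by 2.46 to 13.8 times.

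The arrays carry 314 negative-control spots, which give the signal of spots with no matching transcript. No negative-control spot reached the background-subtracted Sox9 signal in brain 1 or brain 2. In thymus 1, 14 of the 314 reached it, and in thymus 2, 1 did. In the reference channel the numbers were 0 on the brain 1 array, 11 on the brain 2 array, 2 on the thymus 1 array and 1 on the thymus 2 array. The Sox9 signal was therefore nearest to the negative controls in thymus 1 and in the reference of the brain 2 array.

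To compare arrays, log2 of the processed signal was reduced by the 75th percentile of each channel over non-control probes, so that 0 is that percentile. On this scale Sox9 stood at 0.13 in brain 1 and -0.05 in brain 2, and at -3.95 in thymus 1 and -2.75 in thymus 2. The means were 0.04 ± 0.13 in brain and -3.35 ± 0.85 in thymus (SD, n = 2 each). Sox9 in brain thus lay almost at the 75th percentile. The thymus SD was larger than that of 96.4% of tested features, for which the median was 0.19. The brain SD was larger than that of 25.8%, with a median of 0.25.

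The reference RNA gave Sox9 at -1.55 on the brain 1 array, -2.68 on the brain 2 array, -2.09 on the thymus 1 array and -2.09 on the thymus 2 array. Its SD over the 4 arrays was 0.46, above that of 87.1% of the 27123 features with a reference value, where the median was 0.21. Repeated reading of the same RNA thus spread over 1.13 log2 units for this probe. On this scale both thymus samples lay below all 4 reference readings, thymus 2 by little.

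Over all non-control probes, the rank of the probe tells the same order without scaling. Sox9 was brighter than 76.4% of non-control probes in brain 1 and 74.4% in brain 2. It was brighter than 27.1% in thymus 1 and 34.6% in thymus 2. In the reference RNA it was brighter than 55.7% on the brain 1 array, 38.1% on the brain 2 array, 48% on the thymus 1 array and 44.7% on the thymus 2 array. In number, 9850 of 41768 probes with a value were brighter in brain 1, against 30376 of 41674 in thymus 1. In the Cy5 samples 10702 of 41791 were brighter in brain 2, against 27359 of 41816 in thymus 2. A rank is one of spot brightness, which also depends on the probe, and so it gives no order of RNA amounts between genes.

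Among the probes well above background in the same channel the ranks were lower in brain, at 57.6% in brain 1 and 69.6% in brain 2. The numbers of such probes were 23227 and 35178, so the comparison sets differ. In thymus 2 Sox9 was brighter than 32.8% of 40690 such probes. In the reference RNA it was 35.4% on the brain 1 array, 9.32% on the thymus 1 array and 35.8% on the thymus 2 array. In these sets the reference thus did not stand above thymus 2 throughout.

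**Figure D3:**
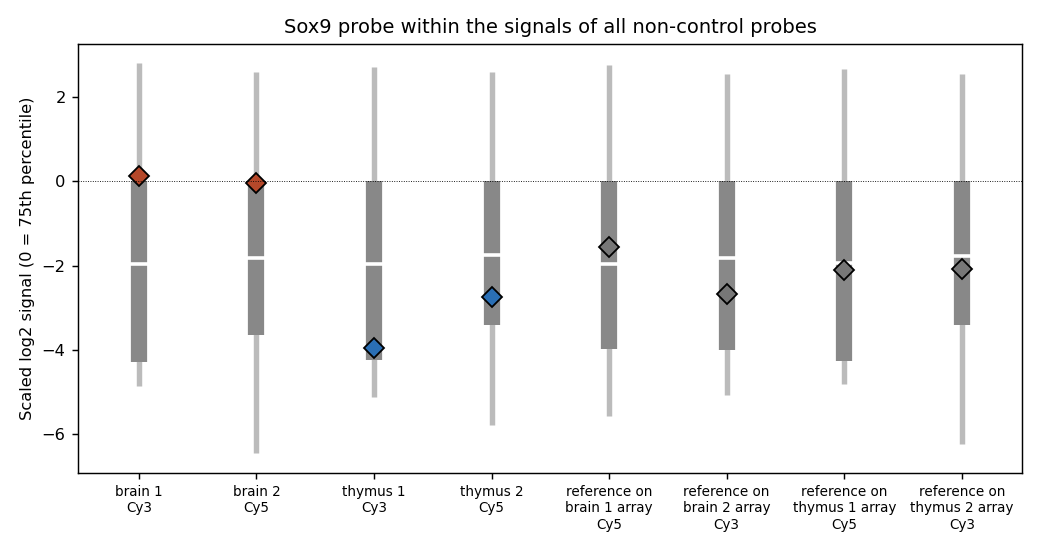
Scaled log2 signal of the Sox9 probe (diamonds) against all non-control probes of each channel. Thin bars span the 5th to 95th percentile, thick bars the 25th to 75th, white marks show the median, and 0 is the 75th percentile. Sox9 lies near 0 in brain, in the lower part of the thick bar in thymus and near the median in the reference RNA.

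Which transcripts differ between the tissues is the comparison that these samples allow. Sox9 was higher in brain by 3.39 log2 units (SE 0.41, 95% interval 2.42 to 4.36), a 10.5-fold difference with an interval from 5.35 to 20.5. This fold averages in the thymus 1 reading that was not well above background, and it was 6.97 with that reading raised to its sample's floor, the lowest signal called well above background there. The limma adjusted p over all 27147 features tested was 0.000867. Sox9 entered the test through brain, where both samples were well above background, and with no filter on dim probes the limma adjusted p was 0.0197 over 41585 features. Signals did not overlap between the tissues. The background of the comparison is broad, since 33.1% of features passed the threshold of 0.05 and 16.2% passed it towards brain. Features without overlap and higher in brain made up 28.7%. On the Sox9 values alone an exact permutation test of 2 against 2 samples cannot go below 0.333, so the adjusted p rests on the spread pooled over features.

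By size the Sox9 difference stood among the larger ones. Of the 27147 features, 897 (3.3%) had a larger brain minus thymus difference, and all of these were among the 4411 called higher in brain, whose median difference was 1.99. By p-value 2343 features came before it. The residual SD of Sox9 was 0.61, larger than for 90.8% of features, and limma combined it with a pooled value of 0.29. These are tissue RNAs, in which fewer cells of a type and less RNA per cell cannot be told apart.

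**Figure D4:**
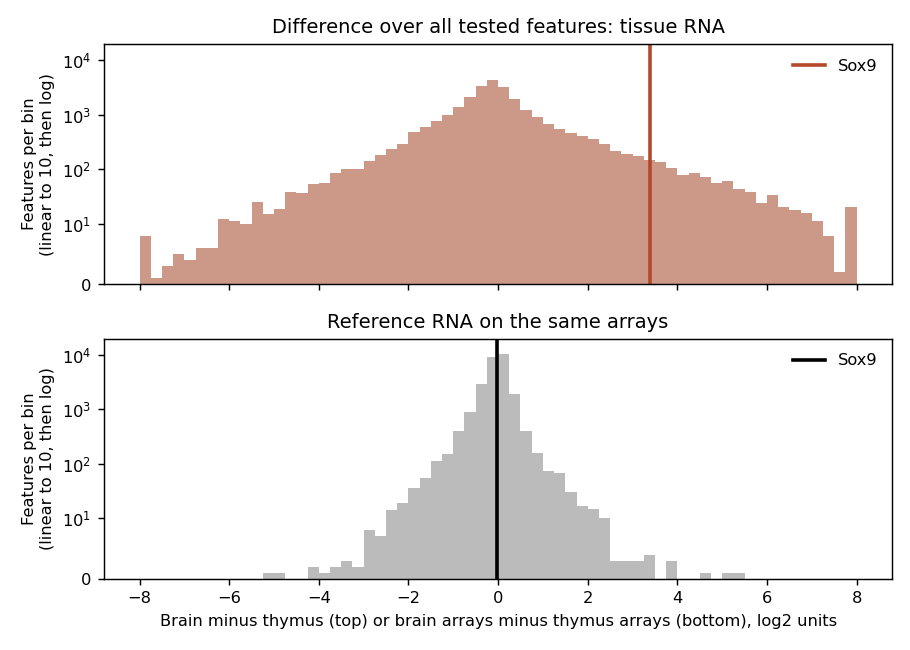
Number of features by difference in log2 units, in bins of 0.25 (count axis linear to 10, then log), for brain minus thymus RNA (top) and for the reference RNA of the brain arrays minus that of the thymus arrays (bottom). The outermost bins hold all values beyond them, and lines mark Sox9, at 3.39 in tissue RNA and -0.02 in reference RNA.

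Each pair of samples gave the same direction. Brain 1 exceeded thymus 1 by 4.08 log2 units and thymus 2 by 2.88. Brain 2 exceeded thymus 1 by 3.90 and thymus 2 by 2.70. Samples of the same dye thus differed by 4.08 in Cy3, a value that rests on the thymus 1 reading not well above background, and by 2.70 in Cy5, or 6.49-fold. In Cy3 2.6% of features had a larger difference and in Cy5 4.25% did. The size rested on thymus 1, and the difference was 2.79 (6.91-fold) without that sample. Without thymus 2 it was 3.99, with a size left uncertain by the dim thymus 1 spot. Where one thymus sample was left, it was assumed to vary like the brain samples.

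The size also followed the background correction. With only the local background subtracted from the median pixel, an alternative chosen after seeing the data, the net Sox9 signal was 367 units in brain 1 and 958 in brain 2, and 152 in thymus 1 and 385 in thymus 2. The 75th percentile of the same net signal was 342 units in brain 1 and 1272 in brain 2, and 1289 in thymus 1 and 2729 in thymus 2. After scaling, Sox9 stood at 0.10 and -0.41 in brain 1 and brain 2, and at -3.08 and -2.83 in thymus 1 and thymus 2. The thymus samples then lay near each other. With the scanner software's background-subtracted signal they lay farther apart, at -4.27 in thymus 1 and -2.87 in thymus 2, against -0.22 in brain 1 and -0.49 in brain 2.

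The difference was 2.80 log2 units (SE 0.25, limma adjusted p 0.000479), or 6.97-fold, with local background subtraction alone, and 3.22 (SE 0.52, limma adjusted p 0.0159), or 9.3-fold, with the background-subtracted signal. It was 2.61, or 6.1-fold, with the normexp model of the background, and the normexp-corrected thymus values were -2.84 and -2.68. With normexp and loess, as a ratio to the reference, it was 2.11 (SE 0.18, limma adjusted p 0.000506), or 4.33-fold. Raising signals below each sample's floor to it was a further alternative, chosen after seeing the data. This floor was -2.77 in thymus 1, where Sox9 lay 1.18 below it, and the difference became 2.80.

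**Figure D5:**
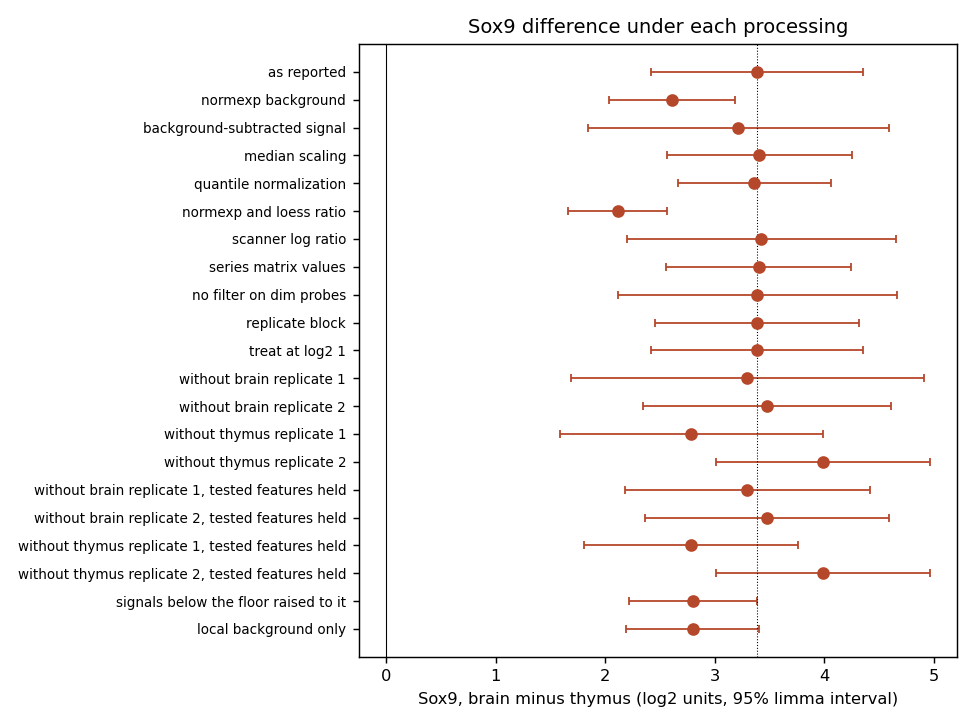
Sox9 difference, brain minus thymus, in log2 units with its 95% limma interval, as reported and under the 20 alternatives that gave a value. The points run from 2.11 to 3.99 and no interval reaches 0.

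Against the reference RNA on the same arrays, brain was higher. The thymus values lay below the reference without passing the threshold in the fit without a dye block. In the authors' deposited table of log ratios, turned here to sample over reference, Sox9 was 1.70 log2 units (error 0.27) in brain 1 and 2.65 (error 0.34) in brain 2. In the same authors' deposited table it was -1.84 (error 0.57) in thymus 1 and -0.66 (error 0.23) in thymus 2. The scanner software's p for these single-array ratios, also from the authors' deposited table, was 5.79e-10 and 3.88e-15 in brain, and 0.00122 and 0.00323 in thymus. These p-values come from an error model of 1 spot and hold no spread between samples.

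Over both arrays the brain to reference ratio was 2.17 log2 units (SE 0.35, 95% interval 1.3 to 3.05, limma adjusted p 0.00452), a 4.51-fold difference. Its size also turned on the processing, and with normexp and loess it was 1.37, or 2.58-fold. The share of features called above the reference in brain was 21.7%, and 6.25% of features had a larger ratio than Sox9. The thymus to reference ratio was -1.25 log2 units (SE 0.35, 95% interval -2.13 to -0.38), and it did not pass the threshold, with a limma adjusted p of 0.0524. The share of features called below the reference in thymus was 12.7%, and 5.39% of features had a lower ratio. Brain therefore stood above its neighbour in the order of levels. Reference and thymus, with a 2.38-fold distance, did not differ beyond the threshold in this fit without a dye block.

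The thymus to reference ratio turned on the sample and the processing, and its call also on the model. Without thymus 1 it was -0.66 (limma adjusted p 0.812) and without thymus 2 it was -1.84 (limma adjusted p 0.0397). Without brain 2 it stayed at -1.25 and passed the threshold, at a limma adjusted p of 0.0333. With normexp and loess it was -0.75 and passed the threshold, at a limma adjusted p of 0.00689. A block for replicate number, equally one for dye, left it at -1.25, which then passed at a limma adjusted p of 0.00249. The median ratio over all features was -0.01 in brain and 0.03 in thymus.

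The reference RNA itself shows how far arrays differed at this probe when the RNA was the same. The reference of the brain arrays minus that of the thymus arrays was -0.02 log2 units (SE 0.4, 95% interval -1.04 to 0.99). No feature passed the threshold in this comparison with limma (0%), and 1052 had an unadjusted p under 0.05. For Sox9 the value near 0 averages readings of -1.55 on the brain 1 array and -2.68 on the brain 2 array. These lay on opposite sides of the -2.09 read on each thymus array. Without the brain 2 array the value was 0.54, without the brain 1 array it was -0.59, and with normexp it was 0.19. As a difference of ratios to the reference, brain minus thymus for Sox9 was 3.43 log2 units (SE 0.5, limma adjusted p 0.00461). This value reuses the tissue signals and takes off the small reference difference. That it lies close to the 3.39 of the tissue channels is therefore no separate support.

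The detection flags of Sox9, which was well above background in brain 1, brain 2 and thymus 2, were shared by 1978 tested features (7.29%). Such features passed the filter on dim signals through brain, so the pattern itself favours a difference towards brain without fixing it. Of the 1978, 1493 (75.5%) were called higher in brain, against 16.2% of all tested features. That share comes from features selected through brain and is no support for the Sox9 difference. The scanner software called 84.1% of probes well above background in brain 2 and 55.5% in brain 1. The shares in thymus were 97.3% in thymus 2 and 60.2% in thymus 1. In the reference RNA the shares were 68.6% in Cy5 on the brain 1 array and 61% in Cy3 on the brain 2 array. They were 57.3% in Cy5 on the thymus 1 array and 86.1% in Cy3 on the thymus 2 array. The share was thus high in both dyes of the thymus 2 array, and its part in the Sox9 flags was not tested.

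Over the 4 tissue and 4 reference values, 2 unnamed features were nearest to Sox9 in scaled log2 signal among 27122 others. TF23979 had a root mean square difference of 0.345 from Sox9 over these 8 values, and TF18630 of 0.348. The median over all other features was 2.11. TF23979 averaged 0.41 in brain and -2.97 in thymus, a difference of 3.37. TF18630 averaged -0.45 in brain and -3.23 in thymus, a difference of 2.78. Both were chosen for likeness over these same values, so their differences are a description. Of the 27122 features compared, 593 lay within a root mean square difference of 1 from Sox9.

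Of 54 genes listed as SOXE members and partners, SOX9 targets, or markers of astrocytes, neural progenitors, neurons, oligodendrocytes, microglia, thymocytes, thymic epithelium and fibroblasts, only Sox9 could be named on this array. The tissue labels could therefore not be checked against defining markers, and the members of the pathway around SOX9 are not analysed here. Of the 13 probes that a RefSeq table names, 8 were tested. Sox9 was the 1 called higher in brain, and 2 were called higher in thymus. Over all tested features 16.2% were called higher in brain and 33.1% in either direction. Besides Sox9, Rangap1, the GTPase-activating protein of Ran, was the other named probe with a positive difference, at 0.37 (SE 0.25, limma adjusted p 0.324).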

How the data were processed

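Spot intensity values come from the authors' use of Agilent Feature Extraction, version 10.5.1.1, as the file headers and the submitters' processing notes state. The processed signal is background-subtracted, spatially detrended and dye-normalized within each array, per the file headers. The deposited log10 ratio is red over green, with a score for its error and a p-value from the software's error model. Other deposited columns are flags. The authors' deposited log2 value table equals log2 of the sample channel's processed signal minus a constant per array.

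Here each sample was read in the channel of its labelled dye. Outlier and control spots were left out, spots of a probe averaged, and each channel scaled by its 75th percentile. Features that were well above background in each of the 2 samples of brain or of thymus were fitted without covariates by the lmFit and eBayes functions of limma 3.58.1 (R 4.3.3). Tests were two-sided, and p-values were adjusted over all features by Benjamini-Hochberg, with a threshold of 0.05. The files hold median and no mean pixel signals, so normexp (offset 50) used medians. The fit was tested on simulated data. The text names Sox9, the 2 features nearest to it by root mean square difference, and array genes with a symbol or on the marker lists where set beside Sox9. Members, lists and tests were chosen with earlier results of these data known. No coordinates are given, since no build is named in the files. Depth is not defined for arrays, and their small number limits the precision.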

Additional observations from a re-analysis of the deposited data

How the results depend on the processing

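Sox9 stayed higher in brain and under the threshold in all 20 alternatives that gave a value, with limma adjusted p up to 0.0442. With samples left out its difference ran from 2.79 to 3.99, and with all samples from 2.11 to 3.43. Requiring all 4 samples well above background removed Sox9 from the test. The brain to reference ratio ran from 1.70 to 2.65 with samples left out. With normexp and loess it was smaller, at 1.37 (2.58-fold), and kept its call. The thymus to reference ratio ran from -1.84 to -0.66 with samples left out, and passed the threshold at -0.75 with normexp and loess, and at -1.25 (limma adjusted p 0.00249) with the replicate block; the cause was not tested. The reference difference turned to 0.19 with normexp and ran from -0.59 to 0.54 with arrays left out. The mean Sox9 rank in brain was 75.4%, against 63.6% over probes well above background, a smaller set, and 72.9% with normexp. In the reference RNA it was 46.6% over 4 arrays. Over probes well above background it was 26.9% over the 3 arrays with such a reading, at 35.4%, 9.32% and 35.8% on the brain 1, thymus 1 and thymus 2 arrays.

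Called features fell from 8989 to 5007 with no filter on dim probes (2769 higher in brain, 2238 in thymus; more features tested) and to 3535 against a log2 difference of 1 (2079 and 1456; a stricter test). With samples left out there were 2402 to 8992, of which 1522 to 4507 were higher in brain and 880 to 4485 in thymus, lowest without thymus 1. With that sample left out and the tested features held, 6602 were called. The replicate block (equally a dye block) gave 10229 calls and left the Sox9 difference at 3.39 (limma adjusted p 0.00189). Numbers do not mark shared animals in the labels, and replicate differences of the tissues correlated at 0.257 across features. Scan day holds no day with both tissues, so day and tissue cannot be told apart, and a random block for it could not be estimated. With low signal over background in thymus 1, the size of the Sox9 difference is imprecise.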
